A study of Drosophila melanogaster with 9 samples.

Results

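The genes described are the nucleoporins, which build the nuclear pore, and the receptors, Ran cycle proteins and mRNA export factors that move cargo through it, as measured in Drosophila melanogaster testes. They were taken by symbol, as array probe sets with a single gene symbol that begins with Nup and a digit, Kap-, Karybeta, Ran, Ntf-, Nxt, Nxf, nxf or Tnpo, or that is Fs(2)Ket, Pen, emb, msk or mbo. This gave 49 probe sets of 42 genes among the 10844 genes with a single-symbol probe set, and the probe set with the highest mean over the 9 arrays stood for each gene. The current gene table holds 44 genes with such symbols; the other two, Nup58 and Nxf3, had no probe set of their own and are not described here. By their known roles 21 genes code for pore subunits and 21 for transport factors. One transport gene, RanBPM, shares the name of the family but codes for a scaffold protein rather than a transport receptor.

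Nuclear pores are ring-shaped assemblies that span the nuclear envelope. Scaffold nucleoporins of the Y complex and the inner ring hold the ring in place, nucleoporins with phenylalanine-glycine repeats line the channel, and filaments and a basket extend to either side. Importins and exportins carry cargo through the channel, and the GTPase Ran, charged in the nucleus and discharged in the cytoplasm by RanGAP, gives the traffic its direction. In the fly germline several of these genes have extra copies, some made by retroposition of an X-linked gene into an autosome and known for expression in the testis.

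RNA came from testes that were dissected by hand, without accessory glands and ejaculatory ducts, from males up to 1 day after eclosion reared at 25 °C, and hybridised to 9 Affymetrix arrays, 3 for each of 3 genotypes. The first group is titled comr and has the genotype comr[z1340] cn[1] bw[1]. The second group, can, carries w, and can[3] together with red[1] and e[1]. The control group is red[1] e[1], the chromosome on which can[3] was made, with normal testes. In both mutants germ cells stop as spermatocytes, before the meiotic divisions, so the testes lack spermatids. The source name and description of the arrays titled comr name aly, another gene of the same class, so "labelled comr" is used for that group. Control and can share red and e, but w is named for can and not for control. The testes labelled comr carry cn and bw instead. In both mutants these differences in background cannot be told apart from the mutation. Dissected testes were frozen until enough had been collected, so each array stands for pooled testes, and the labels do not say that replicates were separate collections. The p values therefore measure only the spread between these arrays, and their number limits the precision.

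Levels are array signals on a linear scale as deposited, with mean ± SD over 3 arrays per group. A change is a difference of log2(signal + 16), which understates the change of dim genes, and is given with its standard error (SE). Adjusted p values are two-sided, from limma over all 9775 tested probe sets with Benjamini-Hochberg adjustment. A gene is said to have risen or fallen only where the adjusted p was under 0.05 and the change 2-fold or more. A signal of 20.3, the highest value among control probe sets without a target in the sample, was taken as the floor, and where every array of 1 group lay at or under it the fold is a lower bound (the geometric mean of the brighter group over the floor). Fewer cells of a type and less RNA per cell cannot be told apart in whole testes.

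The arrays of a group correlated at 0.972 to 0.987 and no array was a copy of another. The aly transcript gave 527 to 559 in the testes labelled comr, 165 to 188 in can and 79.8 to 89.6 in control, and the comr transcript 30 to 35.7, 49.1 to 68.7 and 13.9 to 23.8, so neither was lower in the testes labelled comr than in control. The can transcript gave 27.1 to 45.4 in can testes and 25.3 to 41.9 in control, close above the floor. The 7 spermatid markers summed to 924 to 998 in the testes labelled comr, with 6 of the 7 at or under the floor, to 1415 to 1464 in can, with 1 there, and to 8126 to 8293 in control. The 6 measured early germline markers of 7 summed to 836 to 861 in the testes labelled comr, 474 to 572 in can and 274 to 282 in control. RNA integrity was read from probe sets at both ends of control transcripts. For GAPDH, the 3' signal over the 5' signal was 5.99 ± 0.635 in the testes labelled comr, 5.52 ± 1.33 in can and 2.59 ± 0.294 in control (SD, n = 3), for actin 2.43 ± 0.163, 2.57 ± 0.258 and 2.62 ± 0.0898, and for eIF4a 6.76 ± 0.866, 3.83 ± 0.49 and 5.22 ± 0.292. Haemocyte markers, 4 of 4 measured, summed to 577 to 659 in the testes labelled comr, 389 to 449 in can and 138 to 268 in control, and the 2 measured muscle markers of 5 to 686 to 890, 647 to 705 and 434 to 524. The 6 measured somatic markers of 7 summed to 201 to 212, 245 to 253 and 188 to 203. The 5 spermatocyte markers summed to 2726 to 2806, 2584 to 2755 and 4607 to 4902, and moved in both directions. Of these betaTub85D fell by 3.35 in the testes labelled comr and by 2.69 in can, and Hsp60B was at least 81.4-fold lower in the testes labelled comr and fell by 2.51 in can. In contrast sa (2.02 and 1.78) and Rbp4 (2.49 and 2.16) rose in both and kmg rose in the testes labelled comr (1.67, and 0.94 in can), all as log2 changes. Of the haemocyte markers 4 of 4 rose in the testes labelled comr and 2 in can. The part of these markers and ratios in the changes below was not tested. Accessory gland markers, 10 measured of 11, summed to 45.5 to 1729 in the testes labelled comr, 108 to 3550 in can and 607 to 4088 in control. Without the array with most of this signal in each group, 15 genes rose and 4 fell in the testes labelled comr and 15 rose and 2 fell in can. Of all tested probe sets 28.5% rose and 16.7% fell in the testes labelled comr, and 20.7% and 13.1% in can.

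**Figure D1:**
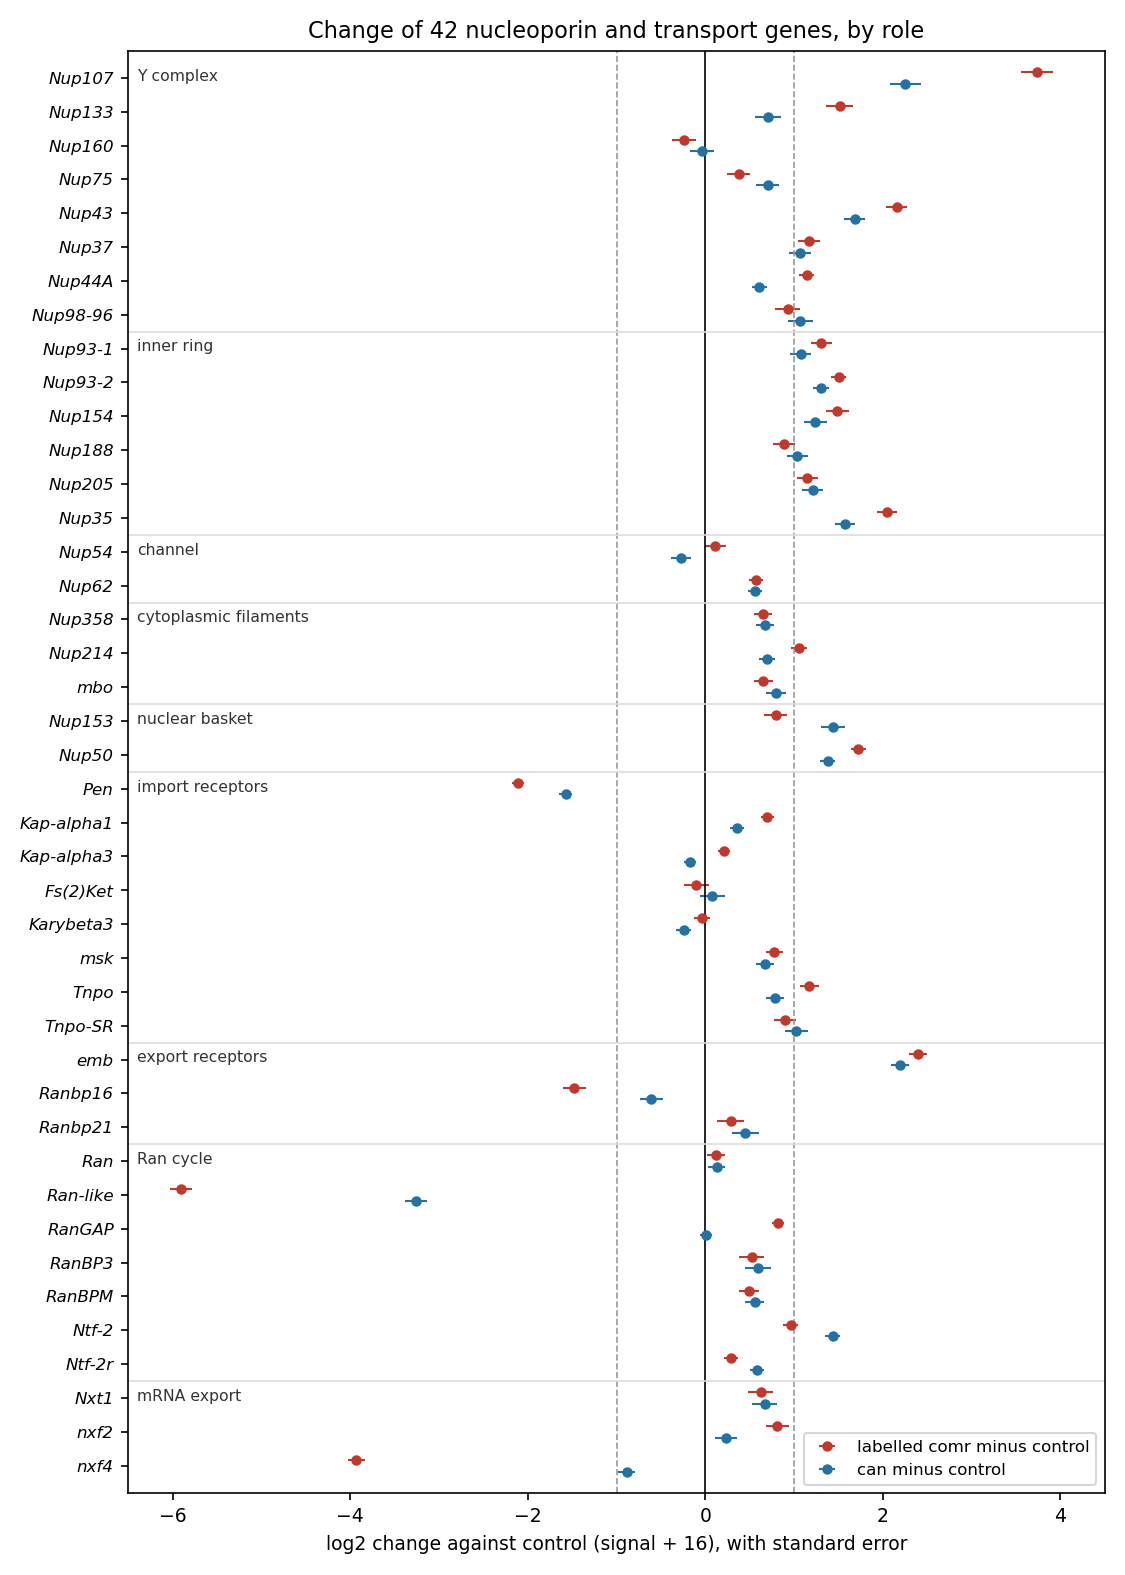
Fitted log2 change of each of the 42 genes against control, with its standard error, in testes labelled comr (red) and can (blue), ordered by role; dashed lines mark a 2-fold change. Most pore subunits lie to the right of 0, between -0.27 and 3.74 in the 2 mutants, while Ran-like (-5.91 and -3.26), nxf4, Pen and Ranbp16 lie to the left.

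In the testes labelled comr 14 of the 42 genes rose and 4 fell, and in can 15 rose and 2 fell. The rises lay mostly in the pore itself, where 12 of 21 subunits rose and 0 fell in each mutant. Without a minimum fold or adjustment, at a limma p under 0.05, 19 pore subunits were higher in each mutant, and 0 were lower in the testes labelled comr and 1 in can. At that threshold 4980 of all 9775 tested probe sets were higher and 2879 lower in the testes labelled comr, and 4722 and 2418 in can. Among the 21 transport genes 2 rose and 4 fell in the testes labelled comr, and 3 rose and 2 fell in can. Pen, Ran-like, nxf4 and Ranbp16 made up the falls, the first pair in both mutants.

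Those counts are to be read against the array as a whole, on which 28.9% of tested probe sets rose and 16.7% fell in the testes labelled comr and 20.7% rose and 13.1% fell in can. For the 42 genes together the shares were 33.3% and 9.52% in the testes labelled comr and 35.7% and 4.76% in can, so in the testes labelled comr the share that rose was near the background. Pore subunits rose in 57.1% of cases in each mutant, and transport genes in 9.52% in the testes labelled comr and 14.3% in can. Transport genes fell in 19% of cases in the testes labelled comr and 9.52% in can, near the 16.7% and 13.1% of all tested probe sets. The median change was 1.14 for pore subunits and 0.49 for transport genes in the testes labelled comr, against 0.35 over all probe sets. In can these medians were 1.06 and 0.36, against 0.29 over all probe sets. Both comparisons share the 3 control arrays, so they are not independent of each other. The lists and roles were chosen with results of these arrays known, and the shares carry no test.

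**Figure D2:**
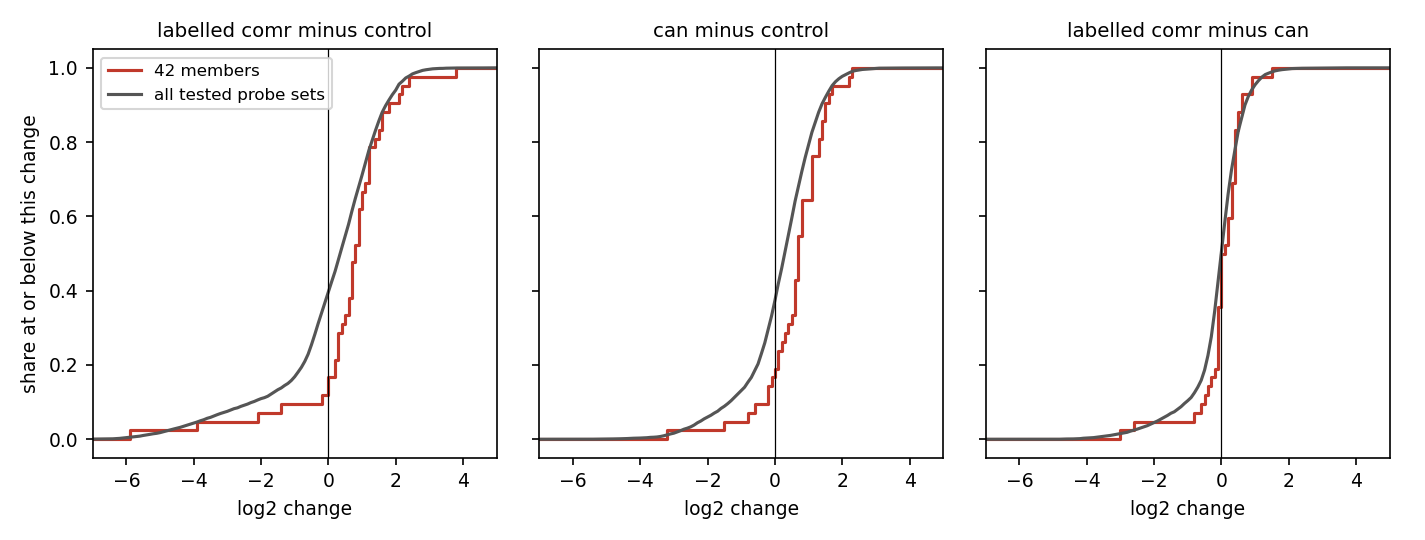
Cumulative share of genes at or below each log2 change, for the 42 genes (red) and all tested probe sets (grey), in the 3 comparisons. The median of the 42 genes is 0.79 against 0.35 in testes labelled comr minus control, 0.67 against 0.29 in can minus control, and 0.00 against -0.01 in testes labelled comr minus can.

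How the arrays are scaled to one another sets the level from which these changes are read. Ribosomal protein genes were themselves higher in the mutants, and centring the arrays on 27 of them moved every change by -1.02 in the testes labelled comr and by -1.24 in can. Centring on array medians moved them by -0.18 and -0.26, and centring on 9 spiked control probe sets by 0.37 and 0.12. With ribosomal protein centring 4 genes were higher and 7 lower in the testes labelled comr, and 1 was higher and 12 lower in can. The 4 were Nup107, Nup43, Nup35 and emb, and the 1 was Nup107. Of all tested probe sets 5.64% were then higher and 40.1% lower in the testes labelled comr, and 1.25% and 47.5% in can. Over all 5 scalings (these 3, quantile normalisation and the values as deposited) 3 to 17 pore subunits were higher in the testes labelled comr and 1 to 12 in can, with 0 to 1 and 0 to 2 lower. The shares of all tested probe sets that were higher ranged from 5.64% to 41.1% and from 1.25% to 24.7%. Those that were lower ranged from 14% to 40.1% and from 12.1% to 47.5%. The 42 genes' median lay above that of all probe sets by 0.44 in the testes labelled comr and 0.38 in can, a gap that no centring can change. It was 0.41 and 0.39 with quantile normalisation and 0.27 and 0.33 with an offset of 64. With that offset 5 of the 21 pore subunits were higher in the testes labelled comr and 4 in can, instead of 12 in each. Of all tested probe sets 15.3% and 9.68% were then higher. With the lowest 50% of probe sets left out the gap was 0.18 and 0.24, and with no filter 0.75 and 0.60. Rises and falls below hold for the values as deposited unless another scaling is named.

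**Figure D3:**
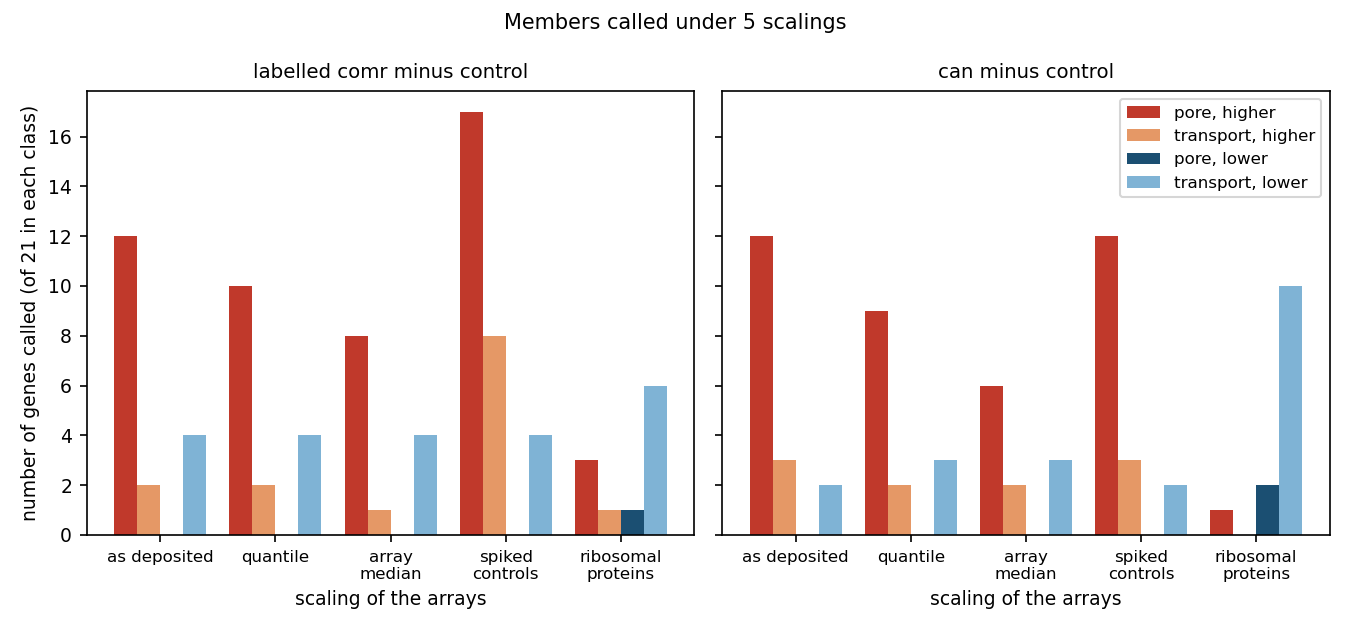
Number of pore subunits and transport genes (21 of each) higher or lower than control at 2-fold or more under 5 scalings of the arrays, in testes labelled comr and in can. Pore subunits called higher number 12 in each mutant as deposited and 3 and 1 after ribosomal protein centring, where 6 and 10 transport genes are called lower. After that centring 5.64% and 1.25% of all tested probe sets are called higher and 40.1% and 47.5% lower.

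The Y complex is the outer scaffold of the pore, and 5 of its 8 members rose in the testes labelled comr and 4 in can. These are 62.5% and 50%, where 28.9% and 20.7% of all tested probe sets rose. Nup107 (CG6743, chromosome 2L), a core subunit of this complex, had signals of 300.9, 331.8 and 371.3 in the testes labelled comr and of 148.3, 75.2 and 115.3 in can, against 10.1, 8.3 and 12.5 in control. Each control array lay under the floor and each mutant array well above it, and the groups did not overlap. The gene was at least 16.4-fold higher in the testes labelled comr (a log2 change of 3.74, SE 0.18, adjusted p = 1.14e-09) and at least 5.36-fold higher in can (log2 change 2.26, SE 0.18, adjusted p = 2.15e-07). Nup107 rose in each of the 5 scalings, with fitted changes of 2.71 to 4.10 in the testes labelled comr and of 1.02 to 2.37 in can, which depend on the offset of 16.

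Nup43 (CG7671, chromosome 3R), a beta-propeller subunit on the arms of the Y, had signals of 380.5, 386.5 and 392.8 in the testes labelled comr and of 233.6, 259.9 and 338.8 in can, against 65.6, 79.2 and 79.3 in control. It rose by 2.15 (SE 0.122, adjusted p = 5.23e-09) and by 1.68 (SE 0.122, adjusted p = 8.53e-08). The arrays labelled comr lay closer together than those of can, and neither mutant overlapped control.
Nup133 (CG6958, chromosome 3R), at the stem of the Y, had signals of 94.0, 73.2 and 117.5 in the testes labelled comr and of 42.8, 44.9 and 52.5 in can, against 25.4, 19.7 and 22.2 in control. Its rise of 1.51 (SE 0.151, adjusted p = 1.26e-06) passed in the testes labelled comr, while the change of 0.71 (SE 0.151) in can was under 2-fold, and 1 control array lay under the floor.
Nup37 (CG11875, chromosome 3R), another small propeller subunit, had signals of 150, 129.2 and 117.2 in the testes labelled comr and of 128.7, 123.7 and 112.1 in can, against 55.2, 39.7 and 55.5 in control. The rises were 1.17 (SE 0.127) and 1.06 (SE 0.127), and the mutants overlapped each other but not control.
Nup44A (CG8722, chromosome 2R), the fly Seh1, had signals of 387, 399 and 437 in the testes labelled comr and of 273.5, 268.1 and 288.4 in can, against 161.4, 190.8 and 176.9 in control. It rose by 1.14 (SE 0.0839, adjusted p = 6.76e-08) in the testes labelled comr and differed by 0.61 (SE 0.0839) in can.

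Nup98-96 (CG10198, chromosome 3R) codes for both the channel protein Nup98 and the Y complex subunit Nup96. Its signals were 347.7, 421.9 and 414.7 in the testes labelled comr and 416.0, 448.6 and 443.1 in can, against 257.2, 153.9 and 199.0 in control. It rose in can by 1.07 (SE 0.143, adjusted p = 2.43e-05), and the change of 0.93 (SE 0.143) in the testes labelled comr was short of 2-fold. Single arrays decided these calls: the change in can was 0.90 without control replicate 2, which also took Nup37 in can to 0.95, and that in the testes labelled comr was 1.01 without their replicate 1 and 1.10 without control replicate 1. The 2 dimmer probe sets of Nup98-96 gave changes of 0.49 (SE 0.23) and 0.45 (SE 0.214) in the testes labelled comr and 0.89 (SE 0.23) and 0.06 (SE 0.214) in can, and neither passed.
The remaining members of the complex did not pass in either mutant. Nup160, the other large arm subunit, lay between 123.2 and 185.1 in the testes labelled comr and 151.5 and 185.1 in can, against 160.7 to 187.0 in control, with overlapping arrays (log2 change -0.24, SE 0.137, and -0.04, SE 0.137). Nup75 had 151.0 to 161.4 in the testes labelled comr and 177.9 to 231.0 in can, against 93.9 to 135.2 in control, without overlap with control (log2 change 0.38, SE 0.128, and 0.70, SE 0.128). Apart from Nup107, which has only a bound, changes in this complex ranged from -0.24 to 2.15 in the testes labelled comr and from -0.04 to 1.68 in can.

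The inner ring joins the scaffold to the membrane and the channel, and 5 of its 6 genes rose in the testes labelled comr and all 6 in can. Of all tested probe sets 28.9% and 20.7% rose. Changes spanned 0.89 to 2.05 in the testes labelled comr and 1.04 to 1.58 in can. Nup35 (CG6540, chromosome X), a membrane-binding subunit, had signals of 396.1, 343.3 and 323.8 in the testes labelled comr and of 294.1, 244.5 and 218.7 in can, against 76.9, 74.6 and 68.8 in control. It rose by 2.05 (SE 0.113, adjusted p = 4.19e-09) and 1.58 (SE 0.113, adjusted p = 7.82e-08), without overlap between any of the 3 groups. Nup154 (CG4579, chromosome 2L), a gene known to be needed for egg and sperm production in the fly, had signals of 113.7, 109.5 and 118.1 in the testes labelled comr and of 82.6, 88.3 and 111.2 in can, against 30, 25.1 and 36.4 in control. Its rises were 1.49 (SE 0.128, adjusted p = 3.12e-07) and 1.24 (SE 0.128, adjusted p = 2.40e-06).
The adaptor Nup93 is coded by 2 genes in the fly. Nup93-1 (CG11092, chromosome X) had signals of 118.7, 124.7 and 98.7 in the testes labelled comr and of 96.5, 94.4 and 92.8 in can, against 39.4, 29.9 and 40.8 in control. Nup93-2 (CG7262, chromosome 3R) had 202.7, 196.6 and 205.3 in the testes labelled comr and 175.5, 174.3 and 172.2 in can, against 66.9, 61.0 and 55.1 in control. Both paralogs rose, Nup93-1 by 1.30 (SE 0.119) and 1.08 (SE 0.119) and Nup93-2 by 1.5 (SE 0.0877) and 1.31 (SE 0.0877). Without control replicate 2 the change of Nup93-1 in can was 0.98.
Nup205 (CG11943, chromosome X), a large scaffold subunit, had signals of 70.0, 67.9 and 77.8 in the testes labelled comr and of 79.8, 78.1 and 69.0 in can, against 25.5, 25.7 and 19.8 in control, rises of 1.15 (SE 0.116) and 1.21 (SE 0.116). Nup188 (CG8771, chromosome 2R), its relative in the ring, had 84.8, 64.8 and 76.2 in the testes labelled comr and 77.0, 89.3 and 89.1 in can, against 36.9, 33.6 and 29.3 in control. It rose by 1.04 (SE 0.122, adjusted p = 7.45e-06) in can, or 0.98 without control replicate 3, and differed by 0.89 (SE 0.122) in the testes labelled comr.

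Neither of the channel genes passed. Nup54 had 301.8 to 380.8 in the testes labelled comr and 230.4 to 314.0 in can, against 313.2 to 328.5 in control, with overlap in both cases (log2 change 0.11, SE 0.115, and -0.27, SE 0.115). A second probe set of Nup54 had 37.8 to 54.7 in the testes labelled comr and 27.8 to 36.2 in can, against 68.1 to 77.4 in control, changes of -0.57 (SE 0.138) and -0.84 (SE 0.138). The probe sets of Nup54 thus disagreed in sign in the testes labelled comr. Nup62 had 235.9 to 252.5 in the testes labelled comr and 235.9 to 251.5 in can, against 154.7 to 169.6 in control, and lay above control without overlap but under 2-fold (log2 change 0.57, SE 0.0768, and 0.56, SE 0.0768).
Of the cytoplasmic filament genes Nup214 (CG3820, chromosome 2R) rose in the testes labelled comr. Its signals were 249.3, 262.6 and 241.8 in the testes labelled comr and 206.6, 204.0 and 170.7 in can, against 114.8, 111.0 and 113.1 in control. Its change of 1.05 in the testes labelled comr had an SE of 0.0898 and an adjusted p of 2.83e-07, with 0.70 (SE 0.0898) in can. Nup358, which docks RanGAP at the pore in animals, had 126.4 to 129.9 in the testes labelled comr and 120.4 to 141.2 in can, against 66.9 to 81.3 in control. The gene mbo, the fly Nup88 and partner of Nup214, had 57.6 to 72.2 in the testes labelled comr and 70.0 to 76.2 in can, against 35.5 to 35.8 in control. Both lay above control on all mutant arrays, with changes of 0.65 to 0.80 that did not reach 2-fold.
The nuclear basket genes reached 2-fold in 3 of the 4 gene and mutant combinations. Nup50 (CG2158, chromosome 2R), which helps importins release their cargo, had signals of 451.4, 449.1 and 451.8 in the testes labelled comr and of 359.6, 379.5 and 317.5 in can, against 124.5, 118.6 and 133.0 in control. It rose by 1.73 (SE 0.083, adjusted p = 1.14e-09) and 1.38 (SE 0.083, adjusted p = 1.68e-08). Nup153 (CG4453, chromosome X), an anchor of the basket, had 38.3, 34.0 and 38.9 in the testes labelled comr and 56.3, 72.1 and 73.3 in can, against 16.9, 11.9 and 15.3 in control. Control lay under the floor, and Nup153 was at least 3.29-fold higher in can (log2 change 1.44, SE 0.133, adjusted p = 8.44e-07) and at least 1.82-fold higher, under the threshold, in the testes labelled comr (log2 change 0.79, SE 0.133).

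**Figure D4:**
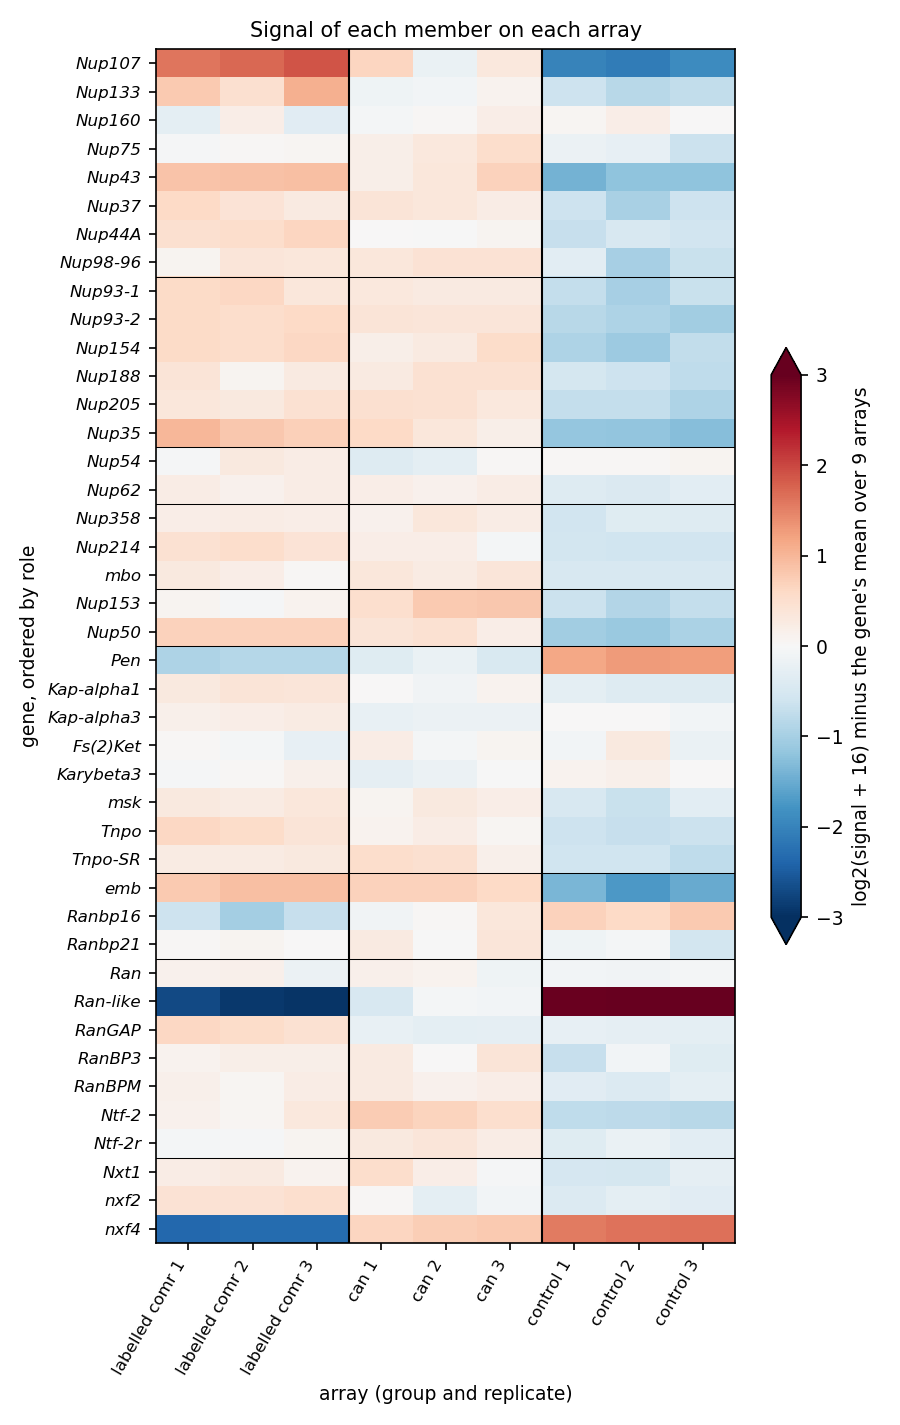
Signal of each gene on each array, as log2(signal + 16) minus the gene's own mean over 9 arrays, with arrays labelled comr at left, can in the middle and control at right; colours stop at -3 and 3. Of 42 genes, 38 lay above the floor on each control array, 40 on each array labelled comr and all 42 on each can array.

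Pore genes outside the symbol rule were read beside these. Of 6 such genes 4 rose in the testes labelled comr and 3 in can (median change 1.43 and 1.17), where 28.9% and 20.7% of all probe sets rose with medians of 0.35 and 0.29. None was lower in either mutant at an unadjusted limma p under 0.05, where 2879 and 2418 of all 9775 tested probe sets were. Mgtor, the basket protein also known as Megator, gave 294.3, 316.1 and 326.5 in the testes labelled comr and 196.4, 221.7 and 218.6 in can, against 34.4, 31.8 and 32.9 in control (log2 change 2.74, SE 0.0876, adjusted p = 2.43e-11, and 2.22, SE 0.0876, adjusted p = 5.58e-10). Aladin, a pore subunit near the membrane ring, gave 176.1, 173.3 and 202.0 in the testes labelled comr and 268.0, 233.6 and 257.0 in can, against 15.1, 16.6 and 16.4 in control, at least 9.03-fold and at least 12.4-fold higher. Sec13, shared by the Y complex and a vesicle coat, rose by 1.84 (SE 0.173) and 1.56 (SE 0.173). The mRNA export adaptor Rae1 rose in the testes labelled comr by 1.03 (SE 0.128) and differed by 0.79 (SE 0.128) in can. The chromatin-binding subunit Elys (log2 change 0.19, SE 0.112, and 0.46, SE 0.112) and the membrane subunit Ndc1 (log2 change -0.07, SE 0.162, and -0.01, SE 0.162) did not pass.

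Of the 8 import receptors 1 rose and 1 fell in each mutant, 12.5% each way. Of all tested probe sets 28.9% rose and 16.7% fell in the testes labelled comr, and 20.7% and 13.1% in can. Pen fell in both mutants, while Tnpo rose in the testes labelled comr and Tnpo-SR in can. Pen (CG4799, chromosome 2L) codes for an importin alpha, the adaptor that binds nuclear localisation signals, and is known to be needed for spermatogenesis in the fly. Its signals were 871.0, 924.4 and 918.8 in the testes labelled comr and 1296.1, 1450.7 and 1218.0 in can, against 3755.5, 4093.9 and 4034.7 in control. The 3 groups did not overlap, with the testes labelled comr lowest. Pen fell by 2.11 (SE 0.0725, adjusted p = 4.75e-11) in the testes labelled comr and by 1.58 (SE 0.0725, adjusted p = 1.78e-09) in can, and it fell in each of the 5 scalings, with changes of -3.13 to -1.59 and of -2.81 to -1.08.
Its paralogs gave smaller changes. Kap-alpha1 (CG8548, chromosome 3L) had 421.1, 449.5 and 448.5 in the testes labelled comr and 344.6, 318.4 and 369.9 in can, against 277.9, 256.7 and 259.3 in control (log2 change 0.70, SE 0.0775, and 0.36, SE 0.0775). Kap-alpha3 (CG9423, chromosome 3R) had 460.0, 473.7 and 487.4 in the testes labelled comr and 348.3, 363.7 and 360.9 in can, against 416.9, 416.4 and 387.2 in control (log2 change 0.21, SE 0.0674, and -0.18, SE 0.0674). Another importin alpha gene, outside the symbol rule, is alphaKap4. It had 1.4, 1.0 and 0.4 in the testes labelled comr and 2.5, 1.5 and 3.6 in can, against 65.7, 75.3 and 63.9 in control. Each mutant array of alphaKap4 lay under the floor, so it was at least 3.36-fold lower in both (adjusted p = 9.31e-09 and 2.68e-08). Within the importin alpha family Pen and alphaKap4 thus fell in both mutants, and Kap-alpha1 and Kap-alpha3 did not pass.

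The importin beta class carries the adaptors or binds cargo directly. Fs(2)Ket, the fly importin beta, had 118.4 to 147.1 in the testes labelled comr and 137.5 to 171.9 in can, against 123.9 to 181.1 in control, with overlap throughout (log2 change -0.10, SE 0.136, and 0.08, SE 0.136). Its second, dimmer probe set had 51.5 to 63.5 in the testes labelled comr and 42.3 to 77.6 in can, against 7.6 to 25.7 in control, and passed in both (log2 change 1.13, SE 0.22, and 1.16, SE 0.22), so the size of the change and the call for this gene depend on the probe set. Karybeta3, the importin of ribosomal proteins, had 289.2 to 334.3 in the testes labelled comr and 245.1 to 292.9 in can, against 300.4 to 334.9 in control. The gene msk, whose product takes activated MAP kinase into the nucleus, had 226.6 to 244.0 in the testes labelled comr and 198.3 to 233.7 in can, against 113.3 to 147.9 in control, above control without overlap but under 2-fold (log2 change 0.78, SE 0.101, and 0.67, SE 0.101).
Tnpo (CG7398, chromosome 3L), the transportin of RNA-binding proteins, had 122.9, 116.4 and 101.9 in the testes labelled comr and 81.5, 88.6 and 78.7 in can, against 43.0, 39.9 and 41.3 in control. It rose by 1.17 (SE 0.104, adjusted p = 3.89e-07) in the testes labelled comr and differed by 0.78 (SE 0.104) in can. The second probe set of Tnpo passed in both mutants (log2 change 1.95, SE 0.188, and 1.74, SE 0.188). Tnpo-SR (CG2848, chromosome 2L), the transportin of SR splicing proteins, had 61.5, 60.5 and 63.1 in the testes labelled comr and 77.8, 74.5 and 56.0 in can, against 27.2, 27.3 and 22.6 in control. It rose in can by 1.03 (SE 0.127, adjusted p = 1.25e-05), a call lost without can replicate 1 (0.96), can replicate 2 (0.98) or control replicate 3 (0.97), and differed by 0.90 (SE 0.127) in the testes labelled comr.

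Of the export receptors emb rose in both mutants and Ranbp16 fell in the testes labelled comr. The gene emb (CG13387, chromosome 2L) codes for the main exportin of proteins with leucine-rich export signals. It had 261.8, 284.1 and 286.7 in the testes labelled comr and 243.0, 244.7 and 228.8 in can, against 46.6, 32.7 and 40.3 in control. Both mutants lay far above control, and emb rose by 2.40 (SE 0.102, adjusted p = 3.62e-10) and 2.20 (SE 0.102, adjusted p = 1.91e-09). Its second probe set also rose, by 1.59 (SE 0.105) and 1.08 (SE 0.105). With ribosomal protein centring the rise of emb was 1.38 in the testes labelled comr and 0.96, under 2-fold, in can.
Ranbp16 (CG33180, chromosome X), the fly relative of exportin 7, had 105.8, 76.6 and 100.8 in the testes labelled comr and 159.3, 176.8 and 221.1 in can, against 289.7, 269.6 and 309.6 in control. The 3 groups were ordered without overlap, and Ranbp16 fell by 1.48 (SE 0.131, adjusted p = 4.14e-07) in the testes labelled comr, as it did in each of the 5 scalings, while the change of -0.61 (SE 0.131) in can was under 2-fold. The second probe set of Ranbp16 gave -0.89 (SE 0.122) and -0.47 (SE 0.122), the same direction but under 2-fold in both. Ranbp21, the fly exportin 5, had 47.3 to 50.4 in the testes labelled comr and 45.9 to 64.4 in can, against 26.9 to 44.0 in control, and did not pass (log2 change 0.29, SE 0.152, and 0.45, SE 0.152).
Among 6 receptors and Ran regulators outside the symbol rule, 1 rose and 1 fell in the testes labelled comr (28.9% and 16.7% of all probe sets did) and 2 rose and 1 fell in can (20.7% and 13.1%). The gene alphaKap4 fell in both mutants as above and Cse1, the exportin that returns importin alpha to the cytoplasm, rose in both. Cse1 had 242.1, 266.8 and 266.9 in the testes labelled comr and 157.4, 179.4 and 215.0 in can, against 54.2, 54.9 and 63.2 in control (log2 change 1.90, SE 0.112, adjusted p = 7.95e-09, and 1.44, SE 0.112, adjusted p = 1.74e-07). The importin Ipo9 rose in can by 1.02 (SE 0.0956) and differed by 0.27 (SE 0.0956) in the testes labelled comr. Rcc1, the exchange factor that charges Ran, gave 0.67 (SE 0.10) and 0.66 (SE 0.10), Arts -0.58 (SE 0.108) and -0.50 (SE 0.108) and ebo 0.15 (SE 0.147) and 0.87 (SE 0.147), and none of these passed.

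The Ran cycle showed the widest contrast, between the GTPase gene and its extra copy. Ran-like (CG7815, chromosome 3L), an autosomal copy of the X-linked Ran gene, had signals of 3.8, 1.5 and 0.8 in the testes labelled comr and of 77.7, 107.8 and 107.5 in can, against 994.1, 1104.1 and 1098.7 in control. It lay under the floor on each array labelled comr, well above it in can and highest in control. Ran-like was at least 52.4-fold lower in the testes labelled comr (a log2 change of -5.91, SE 0.123, adjusted p = 6.16e-13) and fell by 3.26 (SE 0.123, adjusted p = 4.17e-10) in can. Ran itself (CG1404, chromosome X) had 824.3, 845.5 and 669.3 in the testes labelled comr and 840.8, 818.2 and 690.0 in can, against 713.8, 704.5 and 720.5 in control, with overlapping groups (log2 change 0.12, SE 0.0979, and 0.13, SE 0.0979). The probe set of Ran-like was thus under the floor on arrays where that of Ran read 669.3 to 845.5.

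**Figure D5:**
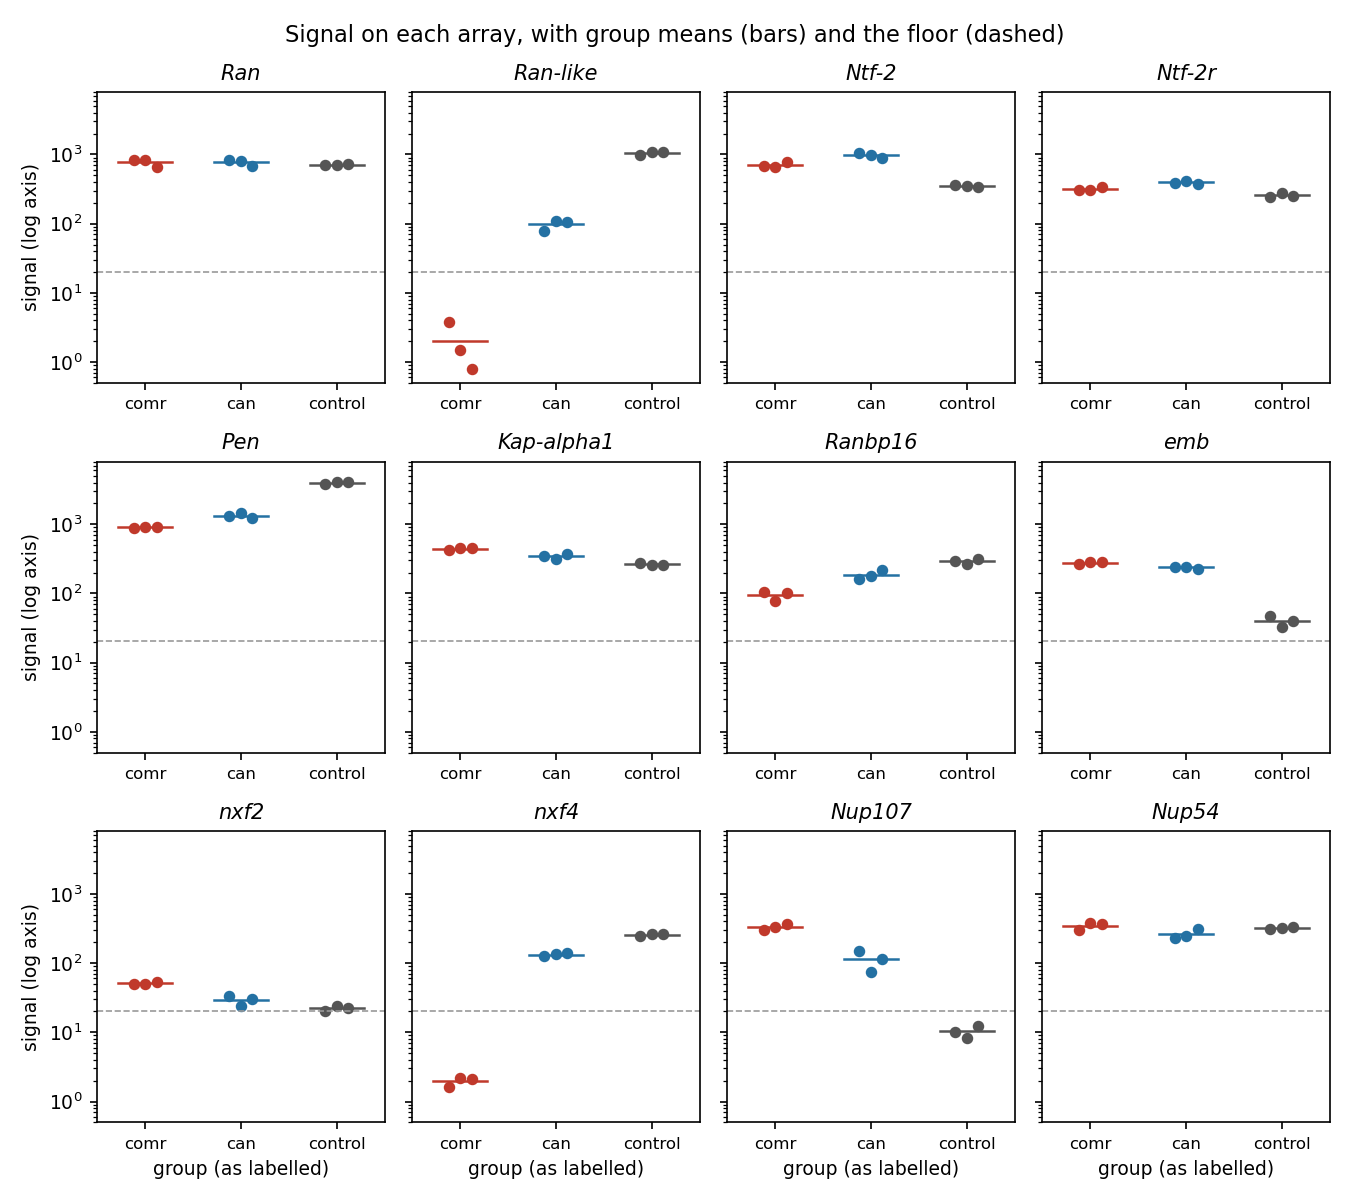
Signal on each of the 9 arrays (points, log axis) with group means (bars) for 12 genes, in testes labelled comr, can and control; the dashed line is the floor of 20.3. Ran-like and nxf4 lie under the floor on the 3 arrays labelled comr only, Nup107 on the 3 control arrays only, and Ran and Ntf-2r stay well above it on every array shown.

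Ntf-2 and Ntf-2r, the second pair of an X-linked gene and its autosomal copy, moved differently from Ran and Ran-like. Ntf-2 (CG1740, chromosome X) codes for the carrier that returns Ran to the nucleus. It had 678.8, 648.6 and 777.4 in the testes labelled comr and 1062.5, 993.0 and 890.1 in can, against 359.4, 354.2 and 342.2 in control. It rose by 1.44 (SE 0.0858, adjusted p = 1.56e-08) in can, and its change of 0.96 (SE 0.0858) in the testes labelled comr was short of 2-fold, or 1.01 without their replicate 2. Ntf-2r (CG10174, chromosome 2L) had 308.3, 309.5 and 339.2 in the testes labelled comr and 392.2, 416.7 and 376.2 in can, against 245.2, 275.9 and 254.7 in control (log2 change 0.29, SE 0.0786, and 0.58, SE 0.0786). Both lay above control on all mutant arrays. The copies are close in sequence and probe sequences were not analysed here, so each probe set may read both transcripts.
RanGAP (CG9999, chromosome 2L), whose truncated duplicate underlies the Segregation Distorter system that kills spermatids in the fly, had 748.3, 706.9 and 667.4 in the testes labelled comr and 407.6, 389.8 and 395.0 in can, against 400.3, 394.8 and 386.2 in control. It was above control in the testes labelled comr, under 2-fold (log2 change 0.82, SE 0.0677, adjusted p = 2.07e-07), and overlapped control in can (log2 change 0.01, SE 0.0677). RanBP3, a cofactor of exportin complexes, had 273.9 to 286.8 in the testes labelled comr and 252.4 to 336.7 in can, against 150.6 to 239.3 in control. RanBPM had 50.9 to 59.0 in the testes labelled comr and 54.7 to 62.4 in can, against 32.7 to 36.4 in control. Neither reached 2-fold, with changes of 0.49 to 0.59. Of the 7 Ran cycle genes 1 fell in the testes labelled comr with 0 rises, and 1 rose and 1 fell in can. Each of these single genes is 14.3% of the 7. Of all tested probe sets 28.9% rose and 16.7% fell in the testes labelled comr, and 20.7% and 13.1% in can. The share that fell was thus near that of all probe sets in both mutants. At an unadjusted limma p under 0.05, 5 were higher in the testes labelled comr, as were 4980 of all 9775 tested probe sets.

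The mRNA export genes within the symbol rule are Nxt1 and members of the NXF family. The gene nxf4 (CG31501, chromosome 3R), a paralog of the general mRNA export receptor, had signals of 1.6, 2.2 and 2.1 in the testes labelled comr and of 124.7, 133.5 and 140.0 in can, against 247.4, 263.0 and 265.1 in control. It lay under the floor on each array labelled comr, and was at least 12.7-fold lower there (log2 change -3.93, SE 0.0964, adjusted p = 2.22e-12). In can it lay below control without overlap, with a change of -0.89 (SE 0.0964, adjusted p = 3.86e-06) that was under 2-fold as deposited and -2.12 with ribosomal protein centring. The paralog nxf2 (CG4118, chromosome 3L), known for piRNA-guided silencing in the ovary, had 50, 49.9 and 53.2 in the testes labelled comr and 33.5, 23.9 and 30.1 in can, against 20.5, 23.8 and 22.4 in control, close to the floor, and did not pass (log2 change 0.81, SE 0.126, and 0.24, SE 0.126). Nxt1, the small partner that NXF proteins bind, had 88.4 to 100.8 in the testes labelled comr and 79.4 to 125.3 in can, against 51.8 to 64.5 in control (log2 change 0.62, SE 0.142, and 0.67, SE 0.142).
Of the 10 mRNA export factors outside the symbol rule with a probe set, 9 were bright enough to test, and 9 of 9 rose in the testes labelled comr and 7 in can (median change 2.06 and 1.49). Of all probe sets 28.9% and 20.7% rose, with medians of 0.35 and 0.29. They include the THO complex, which packages mRNA during transcription, and the helicase Hel25E. The THO subunit gene thoc7 had 206.5, 217.9 and 202.9 in the testes labelled comr and 92.9, 104.2 and 97.7 in can, against 7.2, 13.2 and 16.4 in control, all under the floor, so it was at least 10.3-fold and at least 4.84-fold higher. Hel25E had 420.1, 483.3 and 478.9 in the testes labelled comr and 307.1, 253.0 and 303.3 in can, against 81.7, 84.6 and 63.6 in control (log2 change 2.37, SE 0.112, adjusted p = 9.76e-10, and 1.72, SE 0.112, adjusted p = 3.45e-08). The pore-side factor Gle1 (log2 change 1.77, SE 0.0947, and 0.75, SE 0.0947) and the adaptor Ref1 (log2 change 1.24, SE 0.0651, and 0.79, SE 0.0651) were the ones that stayed under 2-fold in can.

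Testes labelled comr were also set against can directly, which leaves the control arrays out of the difference. Of the 42 genes 1 was higher in the testes labelled comr and 2 were lower, where 4.54% of all tested probe sets were higher and 10.3% lower. The gene that was higher was Nup107, at 335 ± 35.3 in the testes labelled comr and 113 ± 36.6 in can (log2 change 1.48, SE 0.18, adjusted p = 2.44e-05). The genes that were lower were Ran-like, at 2.03 ± 1.57 and 97.7 ± 17.3, at least 4.76-fold (adjusted p = 3.40e-09), and nxf4, at 1.97 ± 0.322 and 133 ± 7.68, at least 6.53-fold (adjusted p = 1.06e-10). These 3 differences were called in each of the 5 scalings.
At an adjusted limma p under 0.05 without the 2-fold minimum, 25.1% of all tested probe sets were higher and 24.1% lower. Among the 42 genes 13 were higher and 7 lower in the testes labelled comr than in can. After Nup107, the largest of these upward were RanGAP (log2 change 0.81, SE 0.0677, adjusted p = 8.94e-07) and Nup133 (log2 change 0.81, SE 0.151). After nxf4 and Ran-like, the largest downward was Ranbp16 (log2 change -0.87, SE 0.131, adjusted p = 0.000155). Pen (log2 change -0.54, SE 0.0725) and Nup153 (log2 change -0.64, SE 0.133) were also lower. The median over the 42 genes was 0.00, against -0.01 over all probe sets.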

How the data were processed

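Signals of 14010 probe sets on 9 arrays were deposited as linear intensity. The submitters' processing notes name GCOS 1.4; the signal algorithm, background step and filters the authors used, not given in the sources used here, could shift dim values most. The trimmed mean of each array (lowest and highest 2% left out) lay at 100.01, so arrays had been scaled to a common level. Genes came from the platform annotation, updated through the current gene table. The 44 control probe sets and the 30% with the lowest mean (15.1 or less) were left out, and all 42 members passed. Means, SDs and log2(intensity + 16) were computed from the deposited intensity. limma 3.58.1 in R 4.3.3 fitted 1 coefficient per group over 9 arrays with an intensity trend, without a block: arrays of the same replicate number correlated at -0.137 to 0.193 in their deviations, those of different numbers at -0.256 to 0.193. The procedure was tested on simulated data, in which 200 probe sets were changed in the group labelled comr alone, as many up as down. Far more were called in the data, and the simulation did not test the scaling of the arrays. Members, lists, roles and alternatives were chosen with earlier results of these arrays known. Every member could be named; arrays are listed one by one for called members and their paralogs, and for RanGAP, chosen after its values were seen. From the other lists, called genes with large changes were named, and the other genes given beside them were chosen after their values were seen. The mRNA export genes tex and tho2 were not named there. Their log2 changes in the testes labelled comr (2.391 and 2.389) were slightly above that of Hel25E (2.369). Alternatives changed the offset, filter, scaling, trend, weights, arrays, block, minimum fold and probe set. No sequences were analysed here.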

Additional observations from a re-analysis of the deposited data

How the results depend on the processing

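Over the 25 other settings, 130 of 150 counts of called genes stayed within 1.5 times the reported count. Of 3144 single changes, 2849 kept their direction and call and 114 turned round, 59 of them with ribosomal protein centring. Some settings leave the fitted changes as they are by construction, so no direction could turn. These are the filters, the trend, the block, only the groups compared, the minimum folds, and leaving out an array of a group not compared. The share that kept direction is therefore no measure of stability. With an offset of 64, 6 genes were higher in testes labelled comr and 6 in can (15.3% and 9.68% of all tested probe sets were). Centring on ribosomal protein genes gave 4 higher and 7 lower in testes labelled comr, 1 higher and 12 lower in can, and 3 higher in testes labelled comr than in can. The shares of all tested probe sets were, in the same order, 5.64% and 40.1%, 1.25% and 47.5%, and 7.92%. Array median centring gave 9 higher in testes labelled comr and 8 in can, and spiked control centring 25 higher in testes labelled comr and 3 against can. Over all tested probe sets the shares were 22.8% and 12.9%, and 41.1% and 8.86%. Without a minimum fold 32 were higher in testes labelled comr, 30 higher and 7 lower in can, and 13 higher and 7 lower in testes labelled comr than in can. The shares of all tested probe sets were then 50.5%, 47.2% and 23.9%, and 25.1% and 24.1%. At 4-fold 4 were higher in testes labelled comr, 2 higher and 1 lower in can, and 0 higher in testes labelled comr than in can (limma; 15 at an unadjusted p under 0.05). Here the shares of all tested probe sets were 6.02%, 2.3% and 5.97%, and 0.286%. At that unadjusted p 2747 of all 9775 were higher. Leaving out 1 array at a time gave 14 to 15 higher and 4 lower in testes labelled comr, 12 to 15 higher and 2 lower in can, and 1 higher and 2 lower between the mutants. The replicate block gave 14 higher and 4 lower, 15 higher and 2 lower, and 1 higher and 2 lower, the same counts as without it. Equal counts do not show whether the numbers pair the arrays. Between testes labelled comr and control, arrays of the same number correlated at 0.185, -0.0289 and 0.193 in their deviations. Between can and control the values were 0.0657, -0.0371 and -0.137. With the lowest 50% of probe sets left out, Nup153 and nxf2 were not tested. In 10 of the 114 changes that turned round the gene was called before or after, and in 104 under neither setting. Centring adds 1 value to all changes of a comparison, so small changes turn by its construction; for the other settings the cause was not tested. With ribosomal protein centring, those that turned in testes labelled comr against control were Nup75 (-0.65), Nup98-96 (-0.10), Nup188 (-0.14), Nup54 (-0.91), Nup62 (-0.45), Nup358 (-0.37), mbo (-0.37), Nup153 (-0.23), Kap-alpha1 (-0.32), Kap-alpha3 (-0.81), msk (-0.24), Tnpo-SR (-0.12), Ranbp21 (-0.73), Ran (-0.90), RanGAP (-0.20), RanBP3 (-0.50), RanBPM (-0.53), Ntf-2 (-0.063), Ntf-2r (-0.73), Nxt1 (-0.40) and nxf2 (-0.21). Those in can against control were Nup133 (-0.53), Nup75 (-0.53), Nup37 (-0.17), Nup44A (-0.63), Nup98-96 (-0.17), Nup93-1 (-0.16), Nup188 (-0.20), Nup205 (-0.026), Nup62 (-0.68), Nup358 (-0.56), Nup214 (-0.54), mbo (-0.44), Kap-alpha1 (-0.88), Fs(2)Ket (-1.16), msk (-0.57), Tnpo (-0.45), Tnpo-SR (-0.21), Ranbp21 (-0.79), Ran (-1.11), RanGAP (-1.22), RanBP3 (-0.64), RanBPM (-0.68), Ntf-2r (-0.65), Nxt1 (-0.57) and nxf2 (-1). Those in testes labelled comr against can were Nup160 (0.016), Nup98-96 (0.071), Nup188 (0.062), Nup205 (0.15), Nup358 (0.19), mbo (0.069), Fs(2)Ket (0.033), Tnpo-SR (0.086), Ranbp21 (0.05), Ran (0.20), RanBP3 (0.14), RanBPM (0.15) and Nxt1 (0.17). With array median centring, those that turned in testes labelled comr against control were Nup54 (-0.07) and Ran (-0.065). Those in can against control were Fs(2)Ket (-0.18), Ran (-0.14), RanGAP (-0.25) and nxf2 (-0.026). Those in testes labelled comr against can were Nup205 (0.018), Nup358 (0.055), Ran (0.07), RanBP3 (0.009), RanBPM (0.015) and Nxt1 (0.032). With spiked control centring, those that turned in testes labelled comr against control were Nup160 (0.13), Fs(2)Ket (0.27) and Karybeta3 (0.33). The one in can against control was Nup160 (0.074). Those in testes labelled comr against can were Nup160 (0.055), Nup98-96 (0.11), Nup188 (0.10), Nup205 (0.19), Nup358 (0.23), mbo (0.11), Fs(2)Ket (0.071), Tnpo-SR (0.12), Ranbp21 (0.088), Ran (0.24), RanBP3 (0.18), RanBPM (0.19) and Nxt1 (0.21). With quantile normalisation, the one that turned in can against control was Fs(2)Ket (-0.14). Those in testes labelled comr against can were Nup205 (0.012), Nup62 (-0.04) and RanBPM (0.053). With array weights, the one that turned in testes labelled comr against can was Ran (0.004). With the mean of all probe sets of a gene, those that turned in testes labelled comr against control were Nup54 (-0.23) and Fs(2)Ket (0.51). Without each group's array of highest accessory gland signal, the one that turned in testes labelled comr against control was Karybeta3 (0.015). Those in testes labelled comr against can were Nup37 (-0.032) and RanBP3 (0.037). With 1 array left out at a time, changes that crossed 0 in testes labelled comr against control were Fs(2)Ket (-0.20 to 0.048) and Karybeta3 (-0.091 to 0.009). In can against control they were Fs(2)Ket (-0.02 to 0.23), Nup160 (-0.11 to 0.021) and RanGAP (-0.005 to 0.026). In testes labelled comr against can they were Nup358 (-0.071 to 0.031), Nup62 (-0.011 to 0.043), Nxt1 (-0.18 to 0.10), Ran (-0.10 to 0.10) and RanBP3 (-0.18 to 0.017). With 3 arrays a group, members at or under the floor of 20.3 carry bounds only.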

Other observations

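Genes of the nuclear lamina and inner membrane, which surround the pores, were also read. Of 8 tested, 4 rose in each mutant (median change 0.84 in testes labelled comr and 1.12 in can), where 28.9% and 20.7% of all probe sets rose. In each 1 was lower at an unadjusted limma p under 0.05, as were 2879 and 2418 of all 9775 tested probe sets. LBR, an inner membrane receptor of lamin, had signals of 217.8, 186.0 and 235.2 in testes labelled comr and of 74.3, 87.3 and 111.1 in can, against 14.8, 19.3 and 17.3 in control. Control lay under the floor, so LBR was at least 10.4-fold and at least 4.42-fold higher. The DNA-bridging factor baf had 612.9, 459.7 and 551.2 in testes labelled comr and 505.3, 517.6 and 576.1 in can, against 99.6, 98.9 and 101.4 in control, rises of 2.25 (SE 0.10, adjusted p = 5.54e-10) and 2.24 (SE 0.10, adjusted p = 1.46e-09). The inner membrane gene bocks (1.66, SE 0.0919, and 1.48, SE 0.0919) and koi (1.04, SE 0.0865, and 1.47, SE 0.0865), a SUN protein that links nucleus and cytoskeleton, rose in both. The gene klar, whose product lies on the outer membrane, was below control without passing (-0.63, SE 0.148, and -0.66, SE 0.148).

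SUMO, a small protein tag, is attached to RanGAP in mammals. Of 4 SUMO pathway genes tested 3 rose in each mutant (28.9% of all probe sets rose in testes labelled comr and 20.7% in can), namely the activating enzyme subunit Aos1, the protease Ulp1 and Sumo itself. Ulp1 had 592.9, 635.0 and 580.0 in testes labelled comr and 614.2, 663.9 and 652.5 in can, against 132.2, 149.9 and 140.4 in control (log2 change 1.98, SE 0.0746, adjusted p = 1.14e-10, and 2.07, SE 0.0746, adjusted p = 2.77e-10). The other activating subunit, Uba2, had 67.6, 56.8 and 77.3 in testes labelled comr and 48.8, 49.9 and 31.2 in can, against 55.7, 76.8 and 77.8 in control, and did not pass (log2 change -0.05, SE 0.164, and -0.54, SE 0.164). After ribosomal protein centring, all these changes would be lower by 1.02 in testes labelled comr and 1.24 in can.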
